A study of Mus musculus with 18 samples.

Results

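Resting macrophages that lack APRIL were compared with resting wild-type (WT) macrophages. The comparison holds 4 of the 18 samples of the series, chosen by genotype and treatment label: 2 columns of APRIL KO and 2 of WT, both labelled unstimulated. All samples are bone marrow-derived macrophages, phagocytes that marrow precursors form in culture, from C57BL/6J mice that were WT, BAFF KO or APRIL KO. All also carry a time point label of preterm birth at gestation day 16, although the cells are described as coming from bone marrow. The other libraries used below are unstimulated BAFF KO and cells of the 3 genotypes given lipopolysaccharide (LPS, 10 ng/ml for 4 h), the bacterial product sensed by Toll-like receptor 4. The series title places BAFF and APRIL in inflammation-induced preterm birth. Neither the way the APRIL gene was inactivated nor the number of mice is stated by the labels.

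APRIL, encoded by Tnfsf13, is a secreted cytokine of the tumour necrosis factor family that furin cleaves before release. It binds the receptors TACI (Tnfrsf13b) and BCMA (Tnfrsf17) on B cells and plasma cells, which it helps to keep alive, and the sugar chains of syndecans and other heparan sulfate proteoglycans. Macrophages and other myeloid cells are known as sources of APRIL.

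The label descriptions give each pair of columns 1 library number, and chi-square values were lower between the 2 columns of a pair than between libraries. Over genes, the mean chi-square between columns was 1.96 in WT and 1.58 in APRIL KO, against 8.85 between the APRIL KO and the WT library. Between the 2 LPS libraries of 1 group it was 5.86 in WT, 5.88 in BAFF KO and 7.44 in APRIL KO. Columns hold fewer reads than libraries, so the values for columns and for libraries are at unlike depths. Because the 2 columns of a pair share a library number, each genotype was counted as 1 resting library, and no p-value is given at rest. The libraries held 5498743 reads (WT) and 5697551 reads (APRIL KO) in listed genes, within the range of 5121833 to 6020780 of all 9 libraries. Differences are between library means on the log2(RPKM + 1) scale, where RPKM is reads scaled to the length of the gene and to the depth of the column. A gene was counted as higher or lower when it differed at least 2-fold on that scale and both APRIL KO columns lay beyond both WT columns. Of 9578 genes with at least 1 RPKM in either library, 15 were higher in APRIL KO (0.157%) and 115 lower (1.2%). With a fold of 1.5, the counts were 172 higher (1.8%) and 320 lower (3.34%). The rises depended on single columns and on the pseudocount: 72 genes were higher without WT replicate 2, and a pseudocount of 0.1 gave 87 higher and 215 lower. The libraries were alike for most genes: 94.5% differed by less than 1.5-fold, and the median difference was 0.02.

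How far libraries of 1 group lie apart could be seen in the LPS groups, which have 2 libraries each. By the same rule 75 genes differed between the WT LPS libraries (0.842%), 64 between those of BAFF KO (0.712%) and 118 between those of APRIL KO (1.31%), in either direction. The 130 genes of the resting comparison are thus close to the largest of these counts. The SD of the log2 differences over genes was 0.35 at rest and 0.30, 0.28 and 0.33 between the LPS libraries. The main results below are set beside these pairs, or beside APRIL KO and WT libraries given LPS, which were not used at rest. Whether the libraries come from different mice or cultures is not stated by the labels, so the p-values with LPS reflect no more than how these libraries vary, and that variation may be technical.

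**Figure D1:**
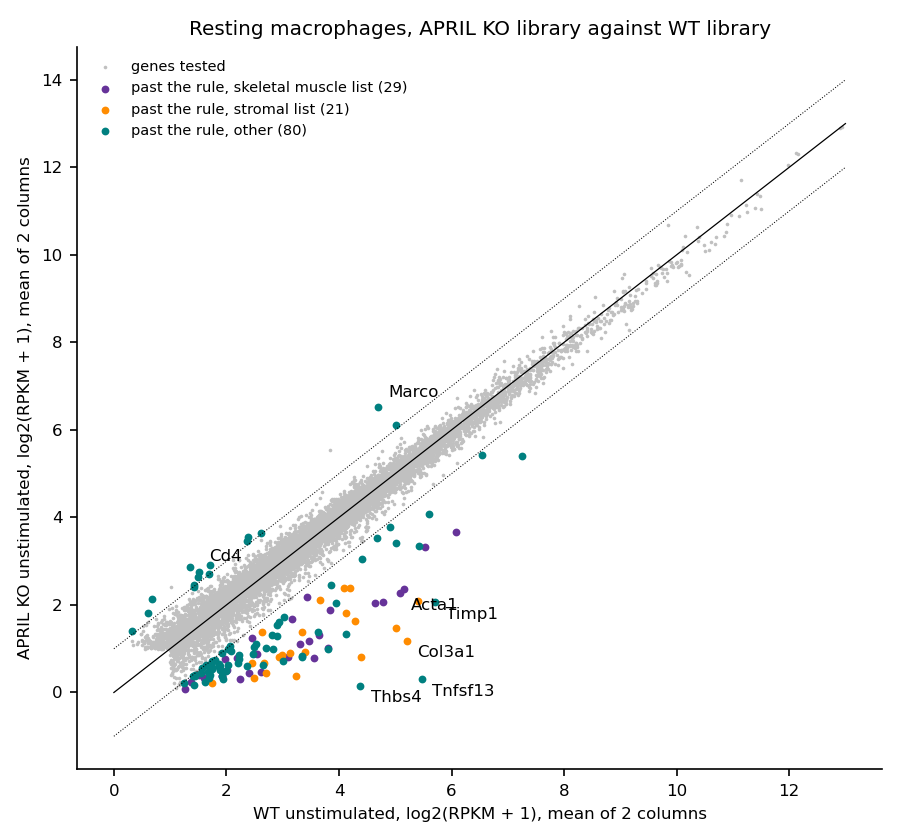
Each point is a gene. The x axis is the WT library and the y axis the APRIL KO library at rest, both as the mean of 2 columns in log2(RPKM + 1); the solid line marks equal levels and the dotted lines a 2-fold difference. Most of the 130 coloured genes lie below the diagonal, with 29 of the skeletal muscle list and 21 of the fibroblast, stromal and collagen list, while Marco lies above it.

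The deleted gene was checked first. Tnfsf13 (ENSMUSG00000089669, mm10 chromosome 11, 69682846 to 69685784, minus strand) stood at 44.9 and 41.9 RPKM in the WT columns and at 49.9 and 55.7 in unstimulated BAFF KO. Neither APRIL KO column held a read of it, against 392 reads in WT, and set against the 3 counts that 0 reads allow, the WT level was at least 135-fold higher (intervals and limits here cover counting error only). With LPS, Tnfsf13 was at 12.99 and 17.1 RPKM in WT and again listed at the floor of 0 reads in both APRIL KO libraries. Its fitted difference with LPS was -3.69 on the log2 scale (limma, Benjamini-Hochberg adjusted p = 0.00019), a size that depends on the pseudocount. The libraries labelled APRIL KO thus lack reads of the target in every column.

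Genes over or beside the target were read in both genotypes. Tnfsfm13, the annotated read-through of Tnfsf12 and Tnfsf13 on the same strand, was at 66.5 and 63.7 RPKM in WT and 49.9 and 42.7 in APRIL KO. Senp3, a SUMO protease gene next to the locus, was at 32.1 and 35.3 RPKM in WT and 20.5 and 25.2 in APRIL KO. Both were lower in APRIL KO in every column but short of the 2-fold rule, and with LPS neither was called (limma adjusted p = 0.49 and 0.94). Tnfsfm13 overlaps Tnfsf13, and how reads were divided between them is not given, so its level is uncertain. The antisense gene Tnfsf13os had no read in either library. Within 5 Mb of Tnfsf13, 96 genes were tested: none was higher and 5 were lower, namely Tnfsf13 itself and the myosin heavy chain genes Myh1, Myh3, Myh4 and Myh8, which belong to the muscle list below. The median there was -0.04, against 0.02 over all genes.

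The receptors and partners of APRIL mostly stayed within 1.5-fold. In a list of 15 tested genes of the BAFF and APRIL axis, none was higher past the rule and 2 were lower, Tnfsf13 and Hspg2, and the list's median was -0.18. Tnfrsf13b, the receptor TACI, was near the limit of detection at 1.31 RPKM in WT and 1.04 in APRIL KO. The syndecans, which carry the heparan sulfate that APRIL binds, went either way within 1.5-fold: Sdc1 stood at 44.4 and 36.9 RPKM, Sdc3 at 6.47 and 9.30, and Sdc4 at 14.3 and 14.1 in WT and APRIL KO. Furin, the protease that releases APRIL, was at 19.5 RPKM in WT and 25.1 in APRIL KO. Hspg2, the basement membrane proteoglycan perlecan, was lower, at 2.49 and 2.07 RPKM in WT and 0.23 and 0.40 in APRIL KO. Its LPS libraries overlapped, with 3.19 and 1.62 RPKM in WT and 0.72 and 2.21 in APRIL KO.

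Markers of macrophages were present at similar levels in both libraries. Of 11 tested markers none passed the 2-fold rule and the median difference was 0.11. Adgre1, the gene of the F4/80 antigen, was at 531 RPKM in WT and 567 in APRIL KO. Csf1r, the receptor for the growth factor that macrophages need, was at 569 and 615. Lyz2, lysozyme, was at 4539 and 5054, and Cd68, a lysosomal membrane protein, at 1075 and 941. Both libraries therefore carried the labelled cell type's defining transcripts. Mertk, a receptor tyrosine kinase for apoptotic cells, was the 1 marker past 1.5-fold. It stood at 12.3 and 11.6 RPKM in the WT columns, 21.4 and 24.6 in APRIL KO, and 22.3 and 23.02 in BAFF KO. WT was the low library at rest, and the LPS libraries did not overlap either: 12.96 and 14.9 RPKM in WT against 23.2 and 25.8 in APRIL KO (log2 difference 0.77, limma adjusted p = 0.065).

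Marco showed the largest rise at rest. This scavenger receptor gene (chromosome 1) binds bacteria, LPS and modified lipoproteins at the macrophage surface. Its level was 23.8 and 25.7 RPKM in the WT columns and 92.1 and 90.0 in APRIL KO, a depth-scaled read ratio of 3.74 (exact 95% interval 3.26 to 4.30). Unstimulated BAFF KO held 79.1 and 93.7 RPKM, so here too WT was the low library. With LPS, WT held 52.9 and 69.1 RPKM and APRIL KO 181.5 and 145.6, again without overlap, with a log2 difference of 1.41 (SE 0.20, limma adjusted p = 0.053). The largest gap between 2 LPS libraries of 1 group was 0.56 for this gene. The difference in Marco, 1.84 at rest and 1.41 with LPS, exceeded that gap between LPS libraries in both conditions. Resting libraries give no such gap, and the adjusted p of Marco with LPS was just above the threshold.

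Of the other 14 rises, Rab4a, Npl and Treml1 were low in WT and higher in both knockouts. Rab4a, a small GTPase of early endosome recycling, was at 1.86 and 1.27 RPKM in WT, 5.57 and 6.98 in APRIL KO and 8.05 and 7.33 in BAFF KO. Npl, an enzyme that breaks down sialic acid, was at 5.44 and 4.79 in WT, 12.8 and 10.1 in APRIL KO and 10.1 and 9.99 in BAFF KO. Treml1, a receptor of the TREM family known from platelets, was at 5.22 and 3.13 in WT, 11.3 and 8.77 in APRIL KO and 9.06 and 8.16 in BAFF KO. For these 3 genes the APRIL KO and BAFF KO levels lay close together and WT below both. The resting log2 differences of Rab4a, Npl and Treml1 were 1.51, 1.03 and 1.09. Their largest gaps between 2 LPS libraries of 1 group were 0.14, 1.06 and 0.99, so those of Npl and Treml1 were about as large as the differences. With LPS, WT and APRIL KO overlapped for Npl (8.34 and 5.82 against 4.97 and 11.4 RPKM) and Treml1 (3.06 and 5.11 against 8.56 and 3.82).

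Cd4, Ulbp1 and Sel1l3 stood high in APRIL KO alone of the 3 resting libraries. Cd4, the coreceptor of helper T cells that some myeloid cells also carry, was at 1.88 and 1.80 RPKM in WT, 5.38 and 6.14 in APRIL KO and 2.29 and 3.06 in BAFF KO. Ulbp1, a ligand of the activating receptor NKG2D, was at 2.09 and 2.45 in WT, 6.56 and 6.59 in APRIL KO and 1.84 and 2.36 in BAFF KO. Sel1l3 was at 1.91 and 1.43 in WT, 3.82 and 4.89 in APRIL KO and 1.54 and 2.06 in BAFF KO. Only 2 of 21 genes of the T and NK cell list reached 1 RPKM, so Cd4 had no set of T cell transcripts beside it. Mrps21, a mitochondrial ribosomal protein gene read at few counts, stood at 11 reads in WT and 34 in APRIL KO, with 1.91 and 1.74 RPKM in WT, 5.93 and 4.48 in APRIL KO and 3.41 and 5.86 in BAFF KO. Zfp971, at 0.66 and 3.81 RPKM in WT, 5.57 and 5.601 in APRIL KO and 1.13 and 4.45 in BAFF KO, has close zinc finger relatives, so its reads may be shared. The remaining 6 of the 15 are unnamed gene models (Gm and a number), of which Gm10563 was the most abundant, at 31.2 RPKM in WT, 68.5 in APRIL KO and 56.7 in BAFF KO (named after its values were seen).

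No rise passed the test with LPS. Of the 15 genes, 10 had the same sign between APRIL KO and WT libraries given LPS and 5 the opposite sign, with a median of 0.22, and the smallest adjusted p was that of Marco (limma). Rab4a was at 0.74 and 0.84 RPKM in WT with LPS and 1.00 and 1.20 in APRIL KO, and its rise at rest was thus not seen at the same size. Cd4 stood at 1.44 and 2.13 in WT with LPS and 2.79 and 2.21 in APRIL KO, a log2 difference of 0.34 (limma adjusted p = 0.43).

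**Figure D2:**
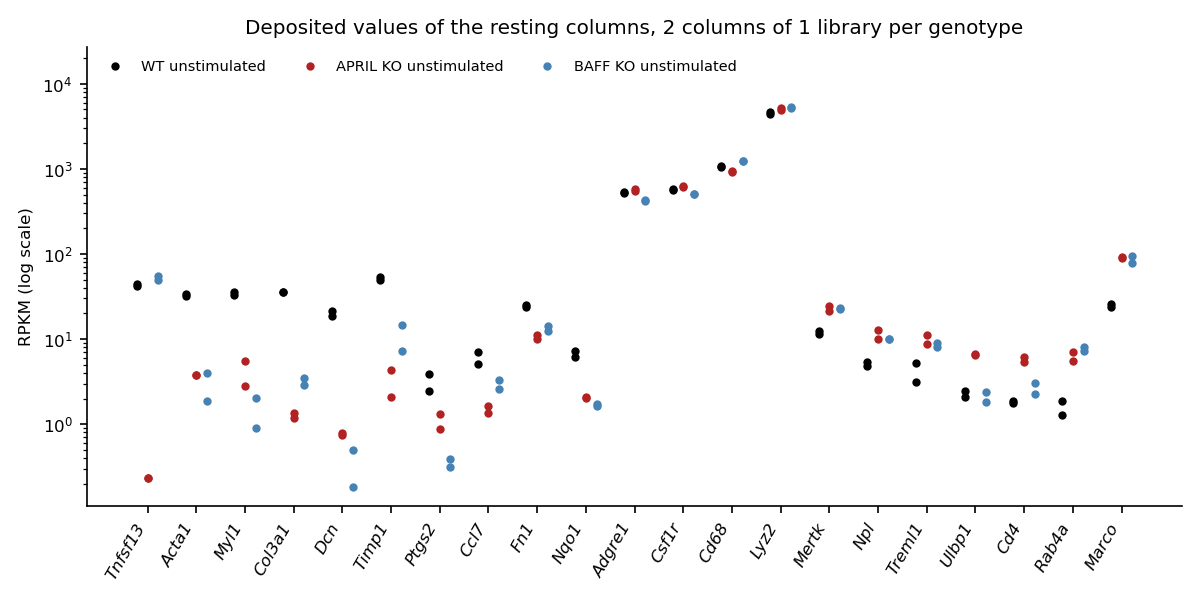
RPKM on a log scale of 21 genes in the resting columns; each genotype has 2 points, the 2 columns of its 1 library, and a gene with no read is drawn at its floor value. Tnfsf13 is at the floor only in APRIL KO, the macrophage genes Adgre1, Csf1r, Cd68 and Lyz2 are level, and Marco is lower in WT than in both knockouts.

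By number, transcripts of skeletal muscle were the largest listed group among the falls. Skeletal muscle genes encode the actin and myosin filaments, the troponins that regulate them and the proteins of the calcium store, and are switched on by factors such as MyoD and myogenin that bind E-boxes, and by serum response factor, which binds CArG boxes. They are not known as macrophage products. Of 39 tested genes of the skeletal muscle list, 29 were lower in APRIL KO past the rule, 36 were lower at 1.5-fold and none was higher, with a list median of -1.50 (-1.48 with the 4 genes without a read in APRIL KO set at 3 counts). Between LPS libraries of 1 group the median of this list was -0.30, 0.20 and 0.38.

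Some of the promoters of these genes hold the letters of such sites, and the printed ones were chosen because they do. Stretches upstream of the start of 4 filament, calcium pump and intermediate filament genes are printed 5′ to 3′ on the gene's strand from RefSeq (GRCm38.p6), with the E-box CAGCTG in capitals.
Acta1 (chr8:123894966-123895021, minus strand): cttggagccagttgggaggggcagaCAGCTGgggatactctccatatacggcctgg
Myl1 (chr1:66945250-66945305, minus strand): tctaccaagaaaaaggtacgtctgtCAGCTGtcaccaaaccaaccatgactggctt
Des (chr1:75360231-75360286, plus strand): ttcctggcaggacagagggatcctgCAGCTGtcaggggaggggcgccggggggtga
Atp2a1 (chr7:126463098-126463153, minus strand): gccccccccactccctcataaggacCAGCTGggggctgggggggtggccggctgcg
The E-box begins 221, 224, 36 and 55 bases before the start of Acta1, Myl1, Des and Atp2a1. The actin genes also hold a CArG box, in capitals here, 73 and 47 bases before the start of Acta1 and Actc1.
Acta1 (chr8:123894814-123894873, minus strand): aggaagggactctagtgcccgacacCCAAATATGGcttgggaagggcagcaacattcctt
Actc1 (chr2:114052888-114052947, minus strand): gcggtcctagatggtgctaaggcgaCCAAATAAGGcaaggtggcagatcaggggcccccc
Both motifs were sought on both strands from 250 bases before to 50 after the start, and neither motif contains the other. Of the 29 muscle genes, 25 matched a promoter by symbol and 15 of these held CAGCTG (60%), against 4944 of 27025 genes in the whole table (18.3%) and 16.8% of the genes tested at rest. A CArG box was found in 3 of the 25 (12%) and in 1.81% of all. Of the 21 stromal genes described below, 15 matched, 5 held the E-box (33.3%) and none the CArG box. A match of letters is no evidence of binding.

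Among the filament genes, Acta1, skeletal alpha-actin (chromosome 8), was at 34.3 and 31.9 RPKM in the WT columns, 3.79 and 3.82 in APRIL KO and 3.94 and 1.87 in BAFF KO, and its depth-scaled read ratio was 0.11 (exact 95% interval 0.07 to 0.16). Myl1, a myosin light chain, was at 33.3 and 36.0 in WT and 5.53 and 2.80 in APRIL KO. Tnnc2, the troponin C of fast fibres, was at 23.2 and 30.1 in WT and 4.09 and 2.29 in APRIL KO. WT was thus several times above APRIL KO in every column of these genes, without overlap.

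Genes of the calcium store, the myosin heavy chains and the intermediate filaments were among the 29 as well. Atp2a1, the calcium pump of the sarcoplasmic reticulum, was at 9.77 and 11.7 RPKM in WT and 0.47 and 0.98 in APRIL KO. Myh1 and Myh3, heavy chains of adult fast and embryonic fibres, stood at 454 and 381 reads in WT and 35 and 50 in APRIL KO. Myh4 held 53 reads in WT and none in APRIL KO (at least 18.3-fold higher in WT), and Myh8, the perinatal chain, 182 and 22. Des, desmin, was at 9.75 and 8.15 RPKM in WT and 1.30 and 1.04 in APRIL KO, and Mybpc1, a myosin-binding protein, at 4.32 and 5.96 and at 0.47 and 0.28. Myog, myogenin itself, held 15 reads in WT and none in APRIL KO. Outside the list, Myl4 and Tnnt2, a light chain and a troponin T found in embryonic and heart muscle, stood at 11.4 and 14.5 RPKM in WT and 1.61 and 3.10 in APRIL KO.

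The muscle genes were lower with LPS as well. Of the 29 genes all had the same sign between APRIL KO and WT libraries given LPS, with a median of -1.98, and 15 were called by limma. Over the genome limma called 1 gene higher (0.0101%) and 20 lower (0.201%) of 9934, and 16 of these 21 were in the muscle list. In all, 1539 genes had an unadjusted p below 0.05. The call rested on few libraries: without WT LPS library 14 or without APRIL KO LPS library 20, 2 genes were called. Tnnc2 held 47.7 and 26.1 RPKM in WT with LPS and 2.53 and 4.22 in APRIL KO, a log2 difference of -3.08 (SE 0.29, limma adjusted p = 0.015). Acta1 was at 40.2 ± 10.6 RPKM in WT with LPS and 6.12 ± 2.29 in APRIL KO (SD, n = 2 libraries each; limma adjusted p = 0.015).

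The summed level of the list was high in all 3 WT libraries and low in all 6 libraries of the knockouts. Without Tpm1 and Tpm3, tropomyosins at 10 RPKM or more in every library, it was 419.3 RPKM in resting WT and 569.3 and 427.8 in WT with LPS. In the 3 APRIL KO libraries it was 85.7 at rest and 55.8 and 121.5 with LPS, and in BAFF KO 78.5 at rest and 83.3 and 105.4 with LPS. The WT libraries were the high ones, and the resting APRIL KO library lay within the range of the other libraries of both knockouts. In bulk RNA, fewer cells of a type and less RNA per cell cannot be told apart, and where the muscle transcripts came from was not tested.

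**Figure D3:**
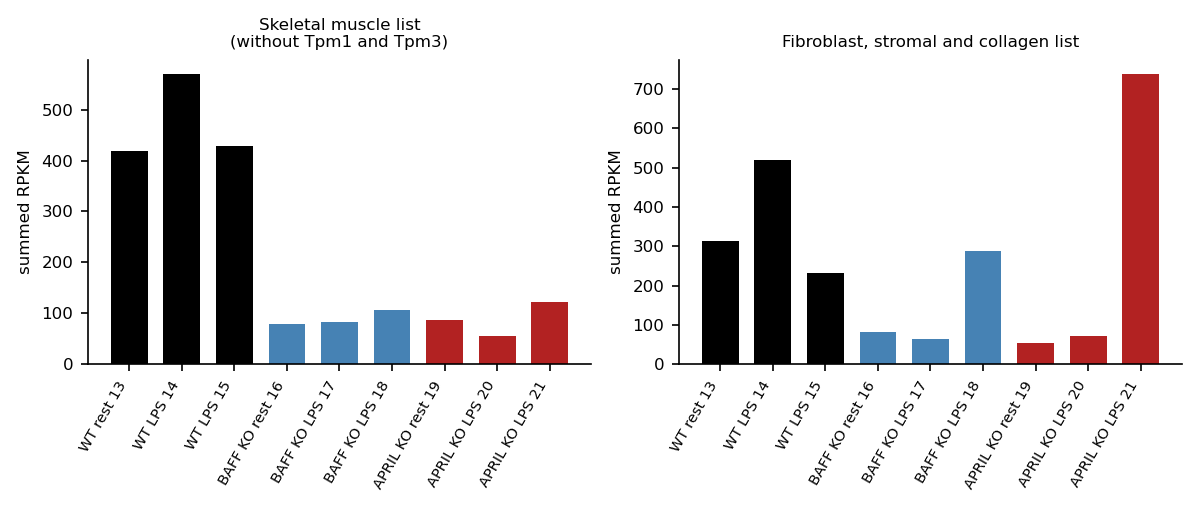
Bars give the summed RPKM in each of the 9 libraries (numbered as in the labels; black WT, blue BAFF KO, red APRIL KO) of the skeletal muscle list, without Tpm1 and Tpm3, and of the fibroblast, stromal and collagen list. The muscle sum is at or above 419.3 in the 3 WT libraries and at or below 121.5 in the other 6, while the stromal sum runs from 53.8 in resting APRIL KO to 737.8 in APRIL KO LPS library 21.

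Collagen and connective tissue transcripts were the second group by number, with larger differences. These genes encode the fibrillar collagens, the proteoglycans and the processing enzymes that fibroblasts lay down as matrix. Of 25 tested genes of the fibroblast, stromal and collagen list, 21 were lower in APRIL KO and none higher, with a median of -2.13. Col3a1, a fibrillar collagen, was at 36.0 and 36.1 RPKM in WT and 1.19 and 1.36 in APRIL KO, with 3.51 and 2.90 in BAFF KO. Col1a1 and Col1a2, the chains of type I collagen, were at 41.4 and 31.3 RPKM in WT and 3.27 and 1.79 in APRIL KO. Dcn, the small proteoglycan decorin, was at 21.5 and 18.7 in WT and 0.78 and 0.75 in APRIL KO. WT again lay far above both APRIL KO columns for each.

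Unlike the muscle list, this list varied widely between libraries of 1 group. Its median difference was -0.99 between the WT LPS libraries, 1.44 between those of BAFF KO and 2.05 between those of APRIL KO. Col1a1 stood at 69.1 and 8.67 RPKM in the WT LPS libraries and at 5.65 and 253.3 in those of APRIL KO, so the groups overlapped. None of the list was called with LPS, 4 of the 21 genes had the opposite sign there and the median over all 25 genes was -0.62. The summed level was 314.1 RPKM in resting WT and 53.8 in resting APRIL KO, and with LPS 519.0 and 232.3 in WT against 72.1 and 737.8 in APRIL KO. The median difference at rest was close in size to that between the 2 APRIL KO LPS libraries.

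The other 65 falls include Tnfsf13, and the largest after it was Thbs4. Thbs4, a thrombospondin of tendon and muscle matrix, held 349 reads in WT and none in APRIL KO (at least 121-fold higher in WT) or in BAFF KO, and it stood at 15.3 and 0.19 RPKM in the 2 WT LPS libraries. Timp1, the inhibitor of matrix metalloproteinases, was at 53.0 and 49.7 RPKM in WT, 4.29 and 2.06 in APRIL KO and 14.5 and 7.27 in BAFF KO. Its LPS libraries overlapped, with 138.4 and 79.5 in WT and 24.98 and 112.3 in APRIL KO. Tnc, tenascin C, Col5a3, a minor fibrillar collagen, and Aebp1, a collagen-binding protein, stood at 9.09, 16.4 and 13.1 RPKM in WT and 0.78, 1.54 and 0.98 in APRIL KO. Serpinf1, the secreted factor PEDF, Efemp2, a fibulin, and Fermt2, the integrin adaptor kindlin-2, were lower as well, by 2.54, 1.84 and 1.76 on the log2 scale. For these 8 genes the largest gap between LPS libraries of 1 group was from 1.37 (Efemp2) to 3.78 (Thbs4) on the same scale.

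Nqo1, a quinone reductase induced by NRF2, was at 6.12 and 7.18 in WT and 2.10 and 2.02 in APRIL KO, with 1.66 and 1.73 in BAFF KO, and its largest gap between LPS libraries of 1 group was 0.53 on the log2 scale. It was the 1 gene of 36 tested in the antioxidant list to pass the 2-fold rule. Hspb8, a small heat shock protein, held 27 reads in WT and 1 in APRIL KO, a ratio of 0.04 (exact 95% interval 0.0009 to 0.22), and Sema7a, a membrane-anchored semaphorin, 96 and 17 reads, with largest LPS gaps of 0.42 and 0.80. With LPS the differences of Nqo1, Hspb8 and Sema7a were -0.40, -1.15 and -0.40, and none was called (limma adjusted p = 0.39, 0.092 and 0.5). The WT and APRIL KO LPS libraries overlapped for Sema7a. Il1rl1, the IL-33 receptor ST2, was at 6.92 and 7.10 RPKM in WT and 0.71 and 0.60 in APRIL KO, but at 9.84 and 0.28 in the 2 WT LPS libraries.

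Gene models of the X and Y chromosome near the pseudoautosomal boundary were named after their values were seen. Gm21887 (X) was at 136.1 and 168.1 RPKM in the WT columns, 45.3 and 38.0 in APRIL KO and 9.86 and 13.5 in BAFF KO. Gm47283 and Mid1-ps1 (Y) were at 47.6 and 31.3 RPKM in WT, 15.8 and 9.63 in APRIL KO and 2.19 and 3.84 in BAFF KO. The 3 resting libraries thus held 3 distinct levels. With LPS the differences of Gm21887 and Gm47283 were -1.34 and -1.32 (limma adjusted p = 0.053 for each) and that of Mid1-ps1 was -0.33 (adjusted p = 0.49). Such genes have near-identical copies, so reads may have been split between them. Y-linked Kdm5d, Ddx3y, Uty and Eif2s3y were read in all libraries and their median difference at rest was 0.02.

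**Figure D4:**
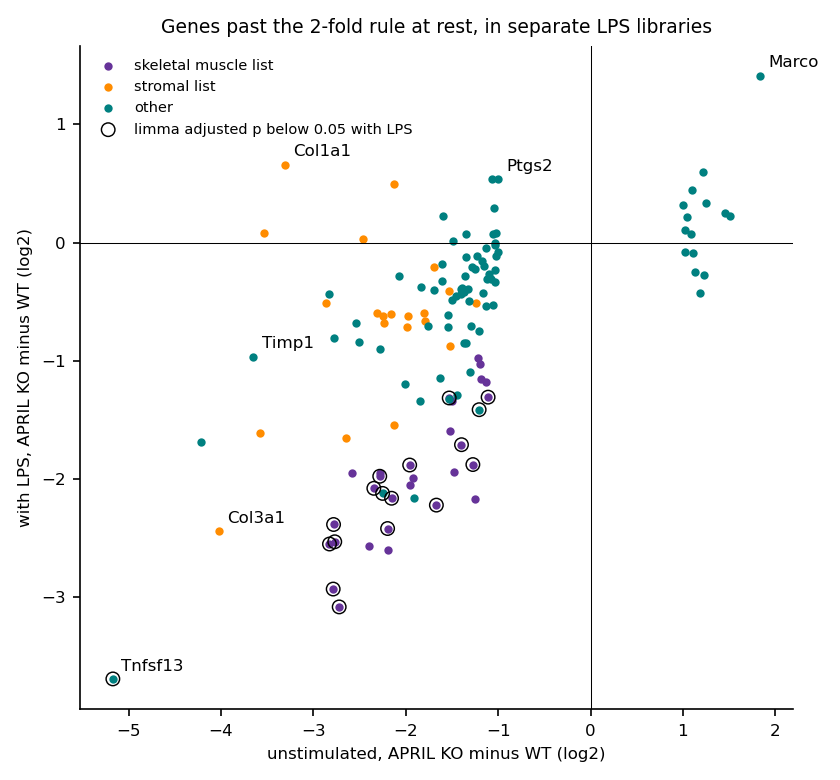
Each point is 1 of the 130 genes past the 2-fold rule at rest; the x axis is the log2 difference between APRIL KO and WT at rest and the y axis that between separate libraries given LPS, with a ring where limma's adjusted p was below 0.05. The muscle genes lie low on both axes, the stromal genes spread from -2.44 to 0.66 on the y axis, and the rises other than Marco lie between -0.43 and 0.60 on it.

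Inflammatory genes were next, since LPS induces many of them from a low resting level. None of 61 tested interferon-stimulated genes passed even 1.5-fold, and their median was -0.03. Mx2, an antiviral GTPase, had the largest difference of that list, with 18.03 and 20.3 RPKM in WT and 13.3 and 12.2 in APRIL KO. None of the 12 guanylate-binding protein and immunity-related GTPase genes or the 22 genes of MHC class I presentation passed 1.5-fold either, with medians of -0.01 and 0.05. Among 23 Toll-like receptor and adaptor genes Tlr8, a sensor of single-stranded RNA, passed 1.5-fold, at 5.13 and 3.10 RPKM in WT and 6.04 and 8.70 in APRIL KO. With LPS Tlr8 was at 7.45 and 4.62 in WT and 12.96 and 12.8 in APRIL KO, without overlap (limma adjusted p = 0.16). Interferon-response and MHC class I transcripts thus lay within 1.5-fold of WT at rest.

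Some chemokines and induced mediators were lower in resting APRIL KO. Of 17 tested chemokines 1 was lower at 2-fold, 4 at 1.5-fold and none was higher, with a median of -0.30 beside -0.18 to 0.02 between LPS libraries of 1 group. Quantile normalization brought the median to -0.16, within the range of those pairs. Ccl7, a monocyte attractant, was at 5.08 and 6.96 RPKM in WT and 1.36 and 1.63 in APRIL KO, and Ccl2, another, was at 9.89 in WT and 4.89 in APRIL KO. Of the 13 tested cytokines none passed 2-fold: Csf1, the macrophage growth factor, and Il6 were lower at 1.5-fold (5.82 and 2.70, and 2.03 and 0.90 RPKM in WT and APRIL KO). Il12a and Il27 were higher at 1.5-fold, from 0.41 to 1.30 and from 1.08 to 2.24 RPKM. Cytokines therefore went both ways, at levels near the limit of detection for several.

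The immediate early list had the lowest median of the 33 pathway lists, -0.36 over 14 genes beside -0.12 to 0.25 between LPS libraries of 1 group, with 1 lower at 2-fold and 4 at 1.5-fold. Fosl1, an AP-1 subunit, was at 2.54 and 3.91 RPKM in WT and 0.64 and 1.22 in APRIL KO. The NF-kB and feedback list had a median of -0.08 over 23 genes. Its largest difference was that of Dusp1, the phosphatase that limits MAP kinase signals, which was at 34.4 and 34.2 in WT, 16.1 and 21.4 in APRIL KO and 18.7 and 21.2 in BAFF KO. Ppp1r15a, which restarts translation after stress, led the ATF4 list (median -0.22) at 11.5 and 14.5 in WT and 6.73 and 7.36 in APRIL KO. With LPS the differences of Fosl1, Dusp1 and Ppp1r15a were -0.04, -0.21 and -0.29, and none was called (limma adjusted p = 0.97, 0.46 and 0.28).

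Several of the falls were higher with LPS than at rest in BAFF KO. The libraries of BAFF KO take no part in the resting comparison, but only 1 of them is unstimulated. Among all tested genes LPS raised 879 at least 2-fold there (9.18%) and lowered 1507 (15.7%). Of the 115 falls 22 were raised (19.1%) and 5 lowered (4.35%), and of the 65 in neither the muscle nor the stromal list 15 were raised (23.1%). The 22 include 5 muscle and 2 stromal genes, and a rise in BAFF KO need not be seen in WT. Myl1 went from 1.47 RPKM to 5.04 and 7.75 with LPS in BAFF KO, but from 34.6 to 47.9 and 31.5 in WT. The stromal sum was 62.6 and 287.2 RPKM in the 2 BAFF KO LPS libraries, so these shares do not separate LPS from other differences between libraries. Of the 15 rises 1 was raised and 1 lowered. Ptgs2, the inducible cyclooxygenase of prostaglandin synthesis, was at 2.49 and 3.90 RPKM in resting WT, 1.31 and 0.88 in APRIL KO and 0.31 and 0.39 in BAFF KO. With LPS it reached 186.6 and 154.1 in WT and 258.2 and 235.9 in APRIL KO. Inhba, the activin A subunit, was at 3.01 and 1.41 in resting WT and 0.55 and 0.53 in APRIL KO, and with LPS at 8.32 and 3.93 and at 6.84 and 11.4. Ccl7 with LPS held 227.4 and 247.6 in WT and 209.5 and 273.3 in APRIL KO. The lower resting levels of these 3 genes were not seen after LPS.

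Ribosomal protein genes were lower by a small and even amount. Of 75 tested none passed 2-fold, 73 had a negative difference, 67 had both APRIL KO columns below both WT columns (89.3%, beside 24.4% of all genes), and the median was -0.26. Rps21, of the small subunit, was the extreme at 1018 and 1378 RPKM in WT and 748.2 and 745.1 in APRIL KO. The 55 genes of the mitochondrial respiratory chain showed the same pattern with 49 negative, 40 with columns apart and a median of -0.20, and Ndufa1 of complex I had the largest difference, at 113.8 and 116.1 in WT and 70.2 and 73.7 in APRIL KO. Gas5, a non-coding host of small nucleolar RNAs named after its values were seen, was at 67.9 and 117.4 in WT and 41.3 and 42.3 in APRIL KO.

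Both lists had like medians with LPS, -0.26 and -0.21, and their medians between LPS libraries of 1 group were -0.13 to 0.13. No member of either was called with LPS. Gene length moved with these values. The median difference rose from -0.10 in the shortest of 4 equal bins of genes (up to 2180 bp) over -0.03 and 0.05 to 0.12 in the longest, and with LPS from -0.13 to 0.13. Of the ribosomal genes 57 and of the respiratory genes 38 lie in the shortest bin, whose other 2300 genes had a median of -0.09. Quantile normalization brought the 2 medians at rest to -0.14 and -0.15. The part of gene length in them was not tested further.

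Receptors for apoptotic cells had the highest median of the pathway lists, 0.23 over 18 genes, beside 0.01 to 0.14 between LPS libraries of 1 group and 0.04 between the genotypes with LPS. The list had 2 genes higher at 1.5-fold, Mertk and the integrin chain Itgb3 (8.04 and 13.3 RPKM in WT and APRIL KO). Siglec1, the sialic acid receptor of tissue macrophages, was at 8.73 and 9.20 RPKM in WT and 15.2 and 15.3 in APRIL KO, and with LPS at 7.67 and 6.56 against 9.75 and 11.8 (limma adjusted p = 0.2). Abca1, the cholesterol exporter, was at 41.8 and 44.3 in WT and 62.2 and 63.0 in APRIL KO, with 34.1 and 31.8 in BAFF KO. With LPS Abca1 was at 24.7 and 17.3 in WT and 31.9 and 30.9 in APRIL KO. Both genes were thus higher in APRIL KO in each condition without overlap, by less than 2-fold and without a call.

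Across the 33 pathway lists, 840 distinct genes were tested, of which 1 was higher, Marco, and 12 lower at 2-fold. These shares, 0.119% and 1.43%, are near those over all genes (0.157% and 1.2%). In 24 lists no gene passed that rule and in 9 none passed 1.5-fold. List medians ran from -0.36 to 0.23. In absolute size, 15 exceeded all 3 medians of the same list between LPS libraries of 1 group. The medians of glycolysis, cholesterol synthesis, lysosome and DNA replication and mitosis were -0.05, 0.06, -0.03 and -0.03, each with no gene past 2-fold, while those of the respiratory chain and ATF4 lists were lower (above). In the glycolysis list Pfkm alone passed 1.5-fold, lower at 8.82 RPKM in WT, 4.94 in APRIL KO and 5.58 in BAFF KO. With LPS Pfkm was called lower, at means of 7.79 RPKM in WT and 2.645 in APRIL KO (limma adjusted p = 0.029). BAFF KO held 4.88 and 4.39 RPKM with LPS. WT was thus the high genotype in both conditions, as for the muscle list, and no other gene of the glycolysis list was called. Among markers of other blood cells, the 6 tested megakaryocyte and platelet genes had a median of 0.33, with -0.59 to 0.23 between LPS libraries of 1 group, and Treml1 past 2-fold. The 9 B and plasma cell genes had a median of -0.25, with 0.02 to 0.25 between LPS libraries of 1 group. The 8 mast cell and basophil genes had one of 0.22, with -0.11 to 0.07 between such libraries and Il1rl1 lower past 2-fold. The 5 globin and erythroid genes were higher together without passing the rule (median 0.29, with -0.73 to 0.34 between LPS libraries of 1 group), as Hba-a1 at 301.2 and 312.3 RPKM in WT and 474.1 and 428.7 in APRIL KO. The 19 neutrophil genes had a median of -0.03.

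**Figure D5:**
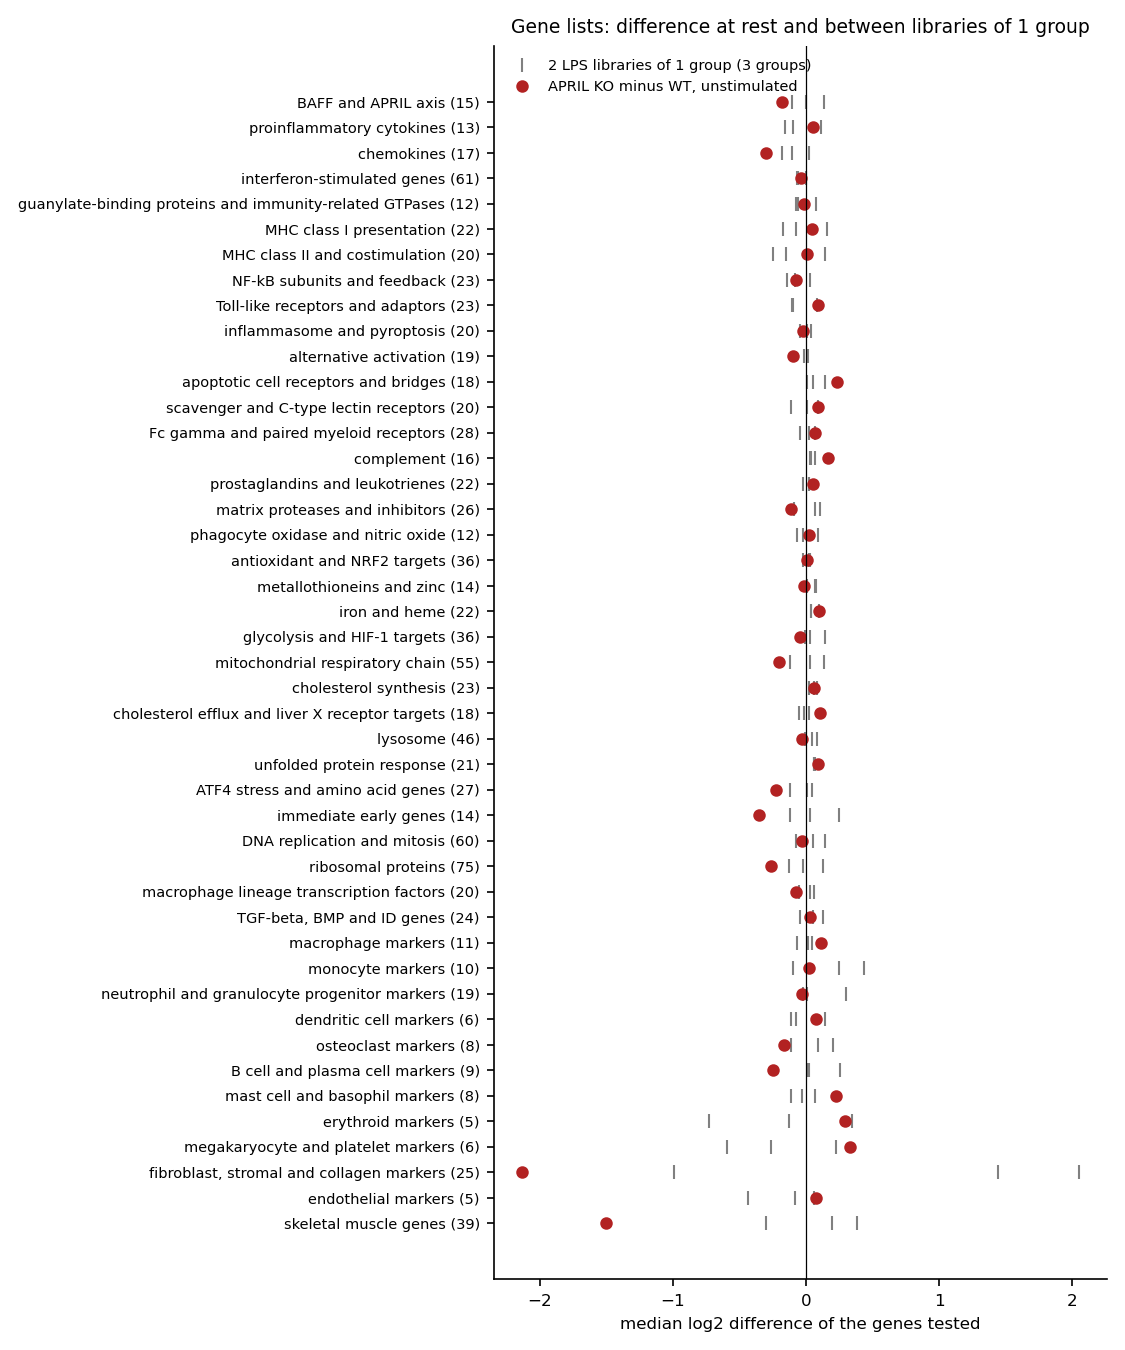
For each list with at least 5 genes tested (number in brackets), the red point is the median log2 difference between APRIL KO and WT at rest and the 3 grey ticks are the medians between the 2 LPS libraries of 1 group. The skeletal muscle median of -1.50 lies far outside its ticks and the stromal median of -2.13 has ticks from -0.99 to 2.05, while the pathway medians lie between -0.36 and 0.23.

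Set directly against the other knockout at rest, APRIL KO had 101 genes higher than BAFF KO (1.06%) and 73 lower (0.768%) of 9500. Marco, Mertk, Nqo1, Dusp1 and the muscle genes named above had resting levels in the 2 knockouts that lay nearer to each other than to WT. Cd4, Ulbp1, Sel1l3, Siglec1 and Abca1 were higher in APRIL KO than in both other genotypes. These levels come from 1 library each, and the comparisons of both knockouts with WT share the same WT library.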

How the data were processed

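The authors deposited 1 table of RPKM values for 11164 genes in 18 columns. The submitters' processing notes name STAR as aligner and mm10 as build. The sources used here give no counter, annotation or gene filter. The labels name both a directional and a TruSeq kit, so whether strand is kept is unclear. Symbols came from GENCODE M21 (11084 genes). Reads were recovered from the deposited RPKM: 100% of values came out whole within 0.01 reads, with 1 read added to each count and a count of 0 set to a floor per gene. Columns held 1649338 to 4078562 reads.

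The 2 columns of a library were averaged. Genes at 1 RPKM or more were put on log2(RPKM + 1). At rest sizes are described without a test. The LPS comparison used limma 3.58.1 under R 4.3.3 (9 libraries, 6 groups, 3 residual degrees of freedom, eBayes with a trend, 2-sided, Benjamini-Hochberg, threshold 0.05), tested on simulated data first. Read ratios carry exact binomial intervals. Promoters are RefSeq's.

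Members, gene lists and tests were chosen with earlier results of these data known. Named genes are the target and its neighbours, the 15 largest rises and falls outside marker lists, up to 2 per list and direction past the rule or else the largest difference (4 for muscle and stromal lists), those near Tnfsf13, and the 10 largest that recurred with LPS. Further members of the lists were named after their values were seen. The CArG box was added after values were seen. Tnfsf13b was not analysed here. Markers of RNA quality were not analysed here. 1 gene that the naming rule picks is not reported here.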

Additional observations from a re-analysis of the deposited data

Results flagged for a closer look

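Ptgs2 moved in opposite directions in the resting and the LPS libraries. It was lower in both resting APRIL KO columns than in both WT columns, by 1.00 on the log2 scale, and higher in both APRIL KO LPS libraries than in both WT LPS libraries, by 0.54 (limma adjusted p = 0.15). The difference between the 2 conditions was not tested, since each resting genotype has 1 library.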

How the results depend on the processing

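The counts at rest (15 higher, 115 lower) depended on the pseudocount and fold. A pseudocount of 0.1 gave 87 higher and 215 lower, a fold of 1.5 gave 172 and 320, and a minimum of 5 RPKM gave 61 lower. Leaving out 1 of the 4 columns gave 19 to 72 higher (72 without WT replicate 2) and 123 to 159 lower. Alternatives added after seeing the data were the summed reads of the 2 columns without the added read, which gave 31 higher, and leaving out the muscle and stromal lists, which left 65 lower. Median ratio scaling gave 10 higher and 98 lower, and quantile normalization 12 and 109. Of the 46 named genes past the rule none changed sign; over these genes and alternatives 274 values stayed within 1 SD between LPS libraries of a group and 48 moved beyond it, and for list medians 288 stayed and 55 moved.

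With LPS, 21 genes were called. No filter gave 5, and a fit to all 18 columns, each taken as a sample, called 1361, with 757 of them higher. Leaving out 1 of the 4 libraries of the 2 groups gave 2 to 24, with 2 called without WT LPS library 14 or APRIL KO LPS library 20. The cause of these changes was not tested. A replicate block gave 19 calls, 17 shared with the main 21. The replicate numbers did not pair the samples: correlations of same-numbered deviations were -0.18, -0.10 and 0.12. At rest no paired analysis was possible because each genotype has 1 library. At 5121833 to 6020780 reads per library, genes near 1 RPKM rest on a few reads.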
